A study of Mus musculus with 12 samples.

Results

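The astrocyte genes Slc1a2 and Aldoc were followed in mouse brain together with Gm13872, annotated antisense to Slc1a2, and Hopxos, annotated antisense to the astrocyte gene Hopx. They are 4 of the 55471 identifiers in each count table, and were chosen by their fold change of U1-bound against input RNA, already known from these data to be low. That ratio is therefore given below as a description, without a test. The 12 libraries made up 4 groups of 3. The MECS U1 group held RNA that came down with an antibody to U1-70K (SNRP70), a protein of the U1 small nuclear ribonucleoprotein, from mice killed 90 min after maximal electroconvulsive stimulation (MECS). That stimulus was a 1 s train at 85 mA through ear clips, after which every mouse had a generalised convulsion. The naive U1 group held the same precipitate from mice handled in parallel without the stimulus. The MECS input and naive input groups held the RNA set aside from the same lysates before precipitation. All mice were C57BL6JL males aged 3 to 5 months, all tissue was mixed cortex and hippocampus, and all homogenates were crosslinked with ultraviolet light at 400 mJ/cm2. A precipitate with a control antibody was not analysed here. Libraries that share a title prefix were taken to come from the same animal, and the labels do not say whether tissue was pooled; p-values therefore measure the spread between these samples.

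U1 ribonucleoprotein recognises the 5′ splice site, the start of each intron, by base pairing with the end of its RNA, and U1-70K is one of its proteins. A precipitate of U1-70K is meant to hold RNAs that were in contact with the particle, including RNAs not yet fully spliced. Slc1a2 encodes GLT-1 (EAAT2), the transporter through which forebrain astrocytes clear most synaptic glutamate. Aldoc encodes aldolase C, the brain isozyme of a glycolytic enzyme, and serves as an astrocyte marker in cortex and hippocampus. Hopx encodes a small homeodomain protein found in astrocytes and neural stem cells. The roles of Gm13872 and Hopxos as transcripts are not stated here.

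Slc1a2 (ENSMUSG00000005089) is a protein-coding gene on the plus strand of chromosome 2, at chr2:102658659-102790784 in GRCm38 with GENCODE M21. Its 12 annotated transcripts cover 13133 bp of exon in a span of 132126 bp. Gm13872 (ENSMUSG00000087185) lies inside that span on the minus strand, at chr2:102737907-102746760, with 3 transcripts and 1825 bp of exon. Of these exon bases 189, or 10.4%, lie opposite Slc1a2 exons, and the other 1636 lie opposite Slc1a2 introns. The opposed exon bases are 23 bp at the end of 1 Slc1a2 exon and the whole of a 166 bp Slc1a2 coding exon. Aldoc (ENSMUSG00000017390), at chr11:78322968-78327781 on the plus strand with 6 transcripts and 3263 bp of exon, has no annotated gene opposite it; Spag5 ends 510 bp before it and Pigs begins 633 bp after it, both on the same strand. Hopxos (ENSMUSG00000087541), at chr5:77094532-77102303 on the plus strand, has 1 transcript with 1661 bp of exon, of which 412 bp (24.8%) lie opposite exons of Hopx (chr5:77086988-77115121, minus strand).

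**Figure D1:**
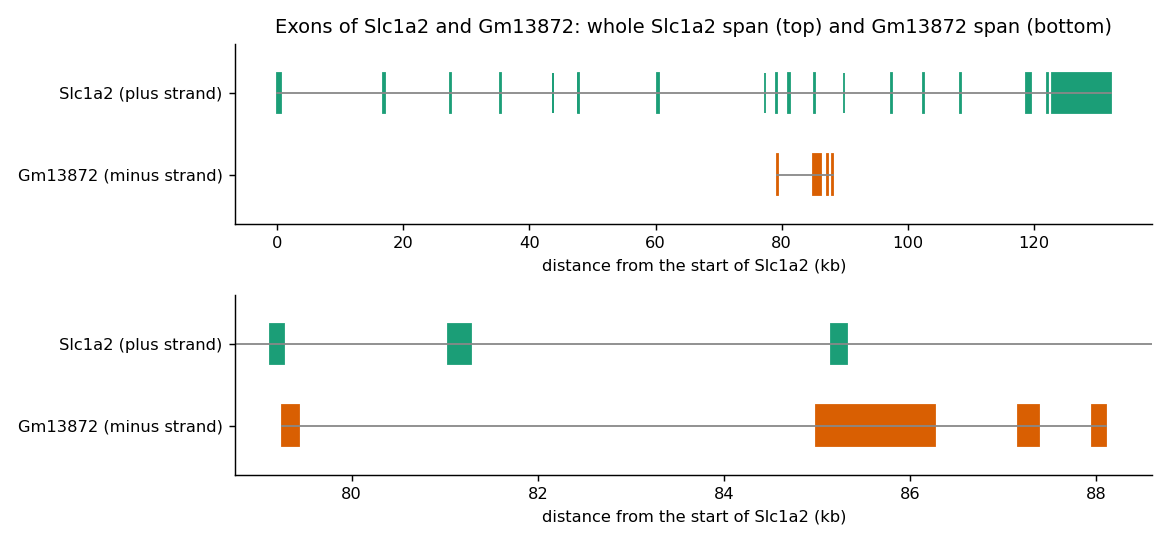
Exons (boxes) and introns (lines) of Slc1a2 above Gm13872, drawn to scale against the distance from the start of Slc1a2 in kb, for the whole Slc1a2 span (top) and the span of Gm13872 (bottom). The largest Gm13872 exon, 1272 bp, covers the whole 166 bp Slc1a2 exon, and the remaining Gm13872 exons lie opposite introns except for 23 bp.

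The sequences that bear on U1 at these loci are the 5′ splice sites, and those that fall inside an annotated exon of either strand could be read from the GENCODE M21 transcripts (GRCm38). They are shown because the site is where U1 pairs and because 2 of the Slc1a2 sites lie where Gm13872 is annotated. The first line is exon 5 of an 11-exon Slc1a2 transcript with the first 20 bases of its intron, read from the Gm13872 exon on the other strand. The others hold 12 exon and 18 intron bases. Each runs 5′ to 3′ on the strand of the named gene, and capitals mark the 9 positions of the splice site, 3 in the exon and 6 in the intron.
Slc1a2 exon and intron start (chr2:102743808-102743993, plus): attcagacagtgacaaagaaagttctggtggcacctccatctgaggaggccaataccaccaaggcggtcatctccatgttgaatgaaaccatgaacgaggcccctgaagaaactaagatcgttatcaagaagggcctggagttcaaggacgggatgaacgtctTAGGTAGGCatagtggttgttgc
Aldoc donor window (chr11:78325401-78325430, plus): gttacagagAAGGTAAGAccaaacatagcc
Slc1a2 donor window (chr2:102737918-102737947, plus): gtttaatcaCAGGTGAGAgctccttcccag
Slc1a2 donor window (chr2:102743962-102743991, plus): tgaacgtctTAGGTAGGCatagtggttgtt
Slc1a2 donor window (chr2:102777644-102777673, plus): gatgagtgcAAGGTACCTttcccattcctg
Hopx donor window (chr5:77094848-77094877, minus): gagcagacgCAGGTGAGTccccaagcctat
Hopx donor window (chr5:77095133-77095162, minus): atccttagtCAGGTTGGGgacggtcccggg
The full consensus is CAGGTAAGT. In the order printed, the Slc1a2 sites matched it at 7, 6 and 6 of 9 positions, with TAGGTAGGC (6 matches) as the site of the exon opposite Gm13872. The Aldoc window shown matched at 7 positions, a second annotated Aldoc site at 3, and the Hopx sites at 8 and 6. Over the 38363 sites that could be read in the same way for all genes, of 250183 annotated, the median was 6 matches, 34.1% had at least 7 and 8.04% had at least 8. A match describes the letters and does not show a bound site. Only 3 of 19 annotated Slc1a2 sites and 2 of 9 Aldoc sites could be read.

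Counts assigned to genes came to 704432 to 1962312 per library, which was 1.42% to 1.84% of the listed reads, while 88.3% to 91.3% of reads were listed as assigned to no feature, which can include reads in introns. The library kit keeps the strand of the RNA, but whether the count step used that strand is a detail not given in the sources used here. For that reason the values below are those of annotated features and not measured transcript levels: if the strand was not used, or was read in reverse, counts under Gm13872 could hold Slc1a2 RNA over the whole feature, as unspliced RNA in the 89.6% of its exon bases that lie opposite Slc1a2 introns. The same holds for Hopxos and Hopx, with 75.2% of exon bases opposite introns, and counts under Slc1a2 and Aldoc could then hold RNA of the other strand. Other astrocyte markers were counted at low levels, with 15 to 49 counts per library for Gfap, 30 to 91 for S100b, 12 to 28 for Aqp4, 3 to 16 for Slc1a3 and 0 to 4 for Aldh1l1. Low counts were not particular to astrocyte genes. The glycolysis genes Pkm and Ldha had 2 to 25 and 0 to 4 counts per library, and Gapdh had 58 to 319. Replicate 2 of naive input was the shallowest of the 12 at 704432 counts, and the astrocyte genes other than Slc1a2 and Aldoc summed there to 1312 counts per 1000000 (CPM), against 818 and 843 CPM in the other naive inputs and 858 to 926 CPM in the MECS inputs.

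Gm13872 carried far more counts than the gene it lies in. Per library it held 17.3 to 42.1 times the counts of Slc1a2, and 125 to 303 times as many per kb of exon. It ranked 8 of 55144 features by total count and held 0.111% to 0.586% of gene counts. Slc1a2 ranked 2016, Hopxos 4612 and Aldoc 10306. Per kb of exon the order was the same in every library, with Gm13872 highest, then Hopxos, then Slc1a2, and Aldoc lowest. Gm13872 averaged 774 CPM per kb in MECS U1 RNA, 652 in naive U1 RNA, 2352 in MECS input RNA and 2838 in naive input RNA. Hopxos averaged 12.0, 9.55, 39.3 and 36.3 CPM per kb in those groups, Slc1a2 3.44, 3.92, 12.4 and 14.4, and Aldoc 0.610, 1.21, 4.60 and 6.45. Within a group neighbours in that order did not overlap, except Slc1a2 and Aldoc in naive input RNA. Hopx itself had 0 to 3 counts in every library and was not tested.

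In both states all 4 features were lower in U1 RNA than in input RNA, and in none of them did a U1 library reach the level of any input library of the same state. Levels are in CPM scaled by TMM, with replicates 1 to 3 in order. Slc1a2 had 49.8, 39.4 and 46.5 CPM in MECS U1 RNA and 161, 161 and 165 CPM in MECS input RNA. It had 50.6, 34.7 and 69.4 CPM in naive U1 RNA, against 152, 289 and 127 CPM in naive input RNA. The MECS inputs lay close to each other, whereas naive input 2 stood well above the other naive inputs. The log2 fold change of Slc1a2 in U1 against input RNA was -1.84 (SE 0.17) in MECS brain and -1.87 (SE 0.26) in naive brain.

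Gm13872 had 1459, 1396 and 1379.8 CPM in MECS U1 RNA and 5452, 3788 and 3639 CPM in MECS input RNA. It had 1086, 1214 and 1269 CPM in naive U1 RNA and 6403, 5010.5 and 4125 CPM in naive input RNA. Replicate 1 was the highest input library in each state, and the MECS U1 libraries were the tightest group of this feature, with a coefficient of variation of 2.96%. The U1 against input log2 fold change was -1.60 (SE 0.15) in MECS brain and -2.12 (SE 0.18) in naive brain.

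Aldoc had 2.34, 2.36 and 1.27 CPM in MECS U1 RNA, from 3, 3 and 2 counts, and 14.4, 12.9 and 17.8 CPM in MECS input RNA, from 19, 14 and 18 counts. It had 5.06, 0.518 and 6.22 CPM in naive U1 RNA, from 4, 1 and 7 counts, and 14.9, 34.2 and 13.9 CPM in naive input RNA, from 17, 23 and 18 counts. Naive input 2 was again the highest and its partner, naive U1 2, the lowest library. Aldoc passed the filter on low counts only through the input libraries, which by itself requires a lower U1 level. Its log2 fold changes, -2.88 (SE 0.51) in MECS brain and -2.54 (SE 0.59) in naive brain, rest on 8 counts in the MECS U1 group and 12 in the naive U1 group.

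Hopxos had 19.5, 24.4 and 15.9 CPM in MECS U1 RNA and 78.0, 60.6 and 57.4 CPM in MECS input RNA. It had 11.4, 14.0 and 22.2 CPM in naive U1 RNA and 62.4, 73.0 and 45.6 CPM in naive input RNA. The lowest input library, naive input 3, still lay above every U1 library. The U1 against input log2 fold change was -1.73 (SE 0.24) in MECS brain and -1.88 (SE 0.30) in naive brain.

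**Figure D2:**
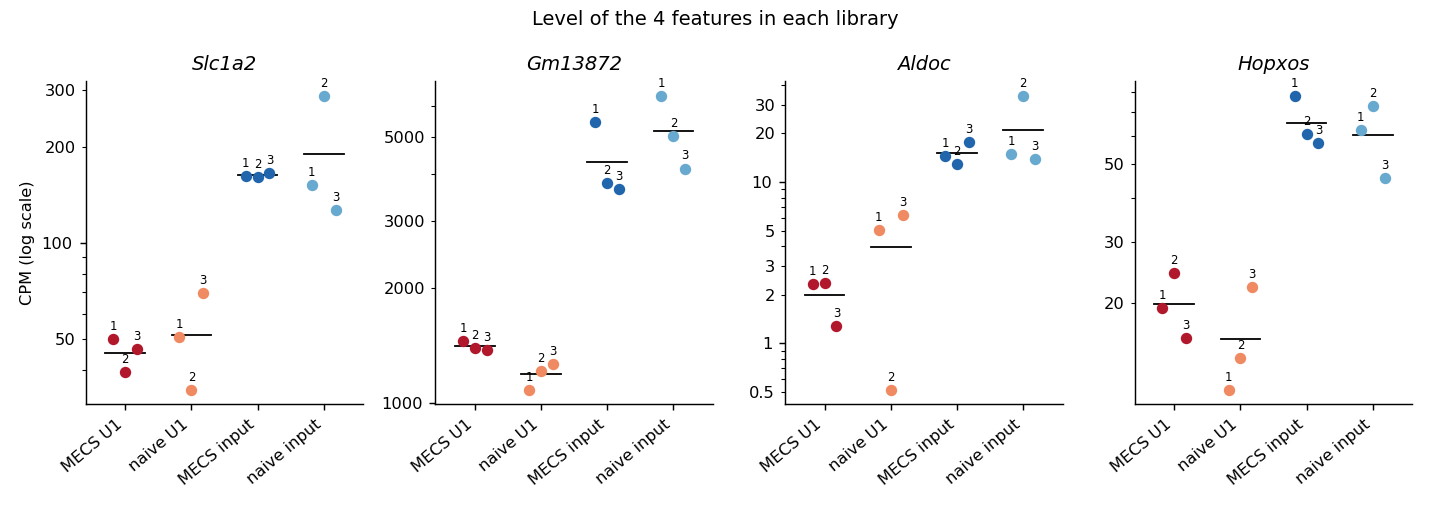
CPM of each feature in each library on log axes that differ between panels; points are libraries, numbered by replicate, and black lines are group means of 3. For each feature every U1 library (red, orange) lies below every input library (blues) of its state, and naive input 2 is the highest point of Slc1a2 (289 CPM) and Aldoc (34.2 CPM).

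Set against all features, the 4 lay at the low end of the U1 to input scale. Of 10791 features tested in MECS brain Aldoc stood at position 4 from the lowest fold change, Slc1a2 at 54, Hopxos at 67 and Gm13872 at 101. Of 10918 tested in naive brain Aldoc stood at 11, Gm13872 at 28, Hopxos at 61 and Slc1a2 at 66. Groups that did not overlap, with U1 lower, made up 12.6% of all features in each state, and 5.21% of features in MECS brain and 6.26% in naive brain were lower in U1 RNA at an adjusted p under 0.05 (edgeR quasi-likelihood test). These values chose the features, so nothing is read from the comparison. The median log2 fold change over all features was 0.02 in MECS brain and 0.03 in naive brain. Naive input 2 bears on the size of the fold change: without it the naive value was -1.46 (SE 0.25) for Slc1a2, -2.14 (SE 0.20) for Gm13872, -2.06 (SE 0.66) for Aldoc and -1.75 (SE 0.33) for Hopxos. U1 and input RNA came from the same lysates. Between MECS and naive bulk tissue, compared next, fewer cells of a type and less RNA per cell cannot be told apart.

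Convulsion did not move any of the 4 features past the threshold, either in input RNA or in U1 RNA. In input RNA the log2 fold change of MECS over naive was -0.21 (SE 0.21, adjusted p = 0.797) for Slc1a2 and -0.29 (SE 0.18, adjusted p = 0.635) for Gm13872. It was -0.42 (SE 0.39, adjusted p = 0.783) for Aldoc and 0.13 (SE 0.22, adjusted p = 0.911) for Hopxos, by the edgeR test adjusted after Benjamini-Hochberg over 10402 features. The MECS and naive inputs overlapped for each feature, whereas they did not for 15% of all features. Adjusted p was under 0.05 for 0.606% of all features. None of the 4 reached an unadjusted p under 0.05 with edgeR, against 9.66% of all features, and none did with DESeq2. With limma-voom 1 did, and the share of all features with limma-voom is not given here. Without naive input 2 the value of Slc1a2 turned to 0.21 and that of Aldoc to 0.04, and without naive input 3 or MECS input 1 that of Hopxos turned to -0.03 or -0.0002. The value of Gm13872 was -0.48 without MECS input 1, -0.19 without MECS input 2, -0.17 without MECS input 3 and -0.11 without naive input 1.

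In U1 RNA, Gm13872 averaged 1412 ± 41.8 CPM in MECS brain and 1189.6 ± 93.9 CPM in naive brain (SD, n = 3 each). All 3 MECS U1 libraries lay above all 3 naive U1 libraries, as did 8.77% of the 11141 features tested. Its log2 fold change was 0.23 (SE 0.13, adjusted p = 0.584 with edgeR) and stayed between 0.18 and 0.29 over 14 alternatives that reuse the same libraries. The log2 fold change was -0.17 (SE 0.25, adjusted p = 0.870) for Slc1a2 and for Hopxos 0.30 (SE 0.35, adjusted p = 0.820), with overlapping groups. Without naive U1 3 the value of Slc1a2 turned to 0.14 and that of Hopxos was 0.60, while Hopxos stood at 0.15 without MECS U1 2. Aldoc, at 2 to 3 counts in MECS U1 RNA and 1 to 7 in naive U1 RNA, did not pass the filter, and with no filter its log2 fold change was -0.78 (SE 0.86, adjusted p = 0.781 with edgeR). Of the 3 features tested, 0 had an unadjusted p under 0.05 with edgeR, against 10.5% of all features, and 0 had with DESeq2. With limma-voom 1 had, and the limma-voom share of all features is not given here. The adjusted threshold was passed by 0.386% of all features.

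Whether the U1 to input ratio itself moved with convulsion was asked in 2 ways, per animal and in a model of all 12 libraries. In MECS animals 1 to 3 the U1 level of Gm13872 was 0.268, 0.369 and 0.379 of its input level. In naive animals 1 to 3 it was 0.170, 0.242 and 0.308. The means of log2 ratio were -1.58 ± 0.28 in MECS animals and -2.10 ± 0.43 in naive animals (SD, n = 3 each), a difference of 0.52 with overlapping groups (exact permutation test, two-sided, p = 0.2). Leaving out 1 animal at a time moved it to between 0.29, without naive animal 1, and 0.72, without naive animal 3. The ratios of MECS and naive animals did not overlap for 9.48% of the 12184 features, and did for each of the 4 here. With 3 animals against 3 the smallest p this test can give is 0.1.

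Slc1a2 had ratios of 0.311, 0.247 and 0.283 in MECS animals and 0.335, 0.122 and 0.549 in naive animals. Its mean log2 ratio was nearly equal in both states, -1.84 ± 0.17 in MECS animals and -1.83 ± 1.11 in naive animals (SD, n = 3 each; exact permutation p = 1.0). The naive animals spread more widely than the MECS animals, with naive animal 2 lowest and naive animal 3 highest. Aldoc ratios were 0.190, 0.214 and 0.0968 in MECS animals and 0.360, 0.0293 and 0.466 in naive animals, and the lowest again belonged to naive animal 2. Its mean log2 ratio was -2.66 ± 0.62 in MECS animals and -2.56 ± 2.21 in naive animals (SD, n = 3 each; exact permutation p = 1.0). Hopxos ratios were 0.254, 0.407 and 0.284 in MECS animals and 0.189, 0.197 and 0.493 in naive animals, with means of log2 ratio of -1.70 ± 0.36 in MECS animals and -1.92 ± 0.78 in naive animals (SD, n = 3 each; exact permutation p = 0.6). The difference in mean log2 ratio changed sign for Slc1a2 without naive animal 1, naive animal 3 or MECS animal 2, for Aldoc without naive animal 1, naive animal 3 or MECS animal 3, and for Hopxos without naive animal 1, so that no direction can be given for these 3.

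**Figure D3:**
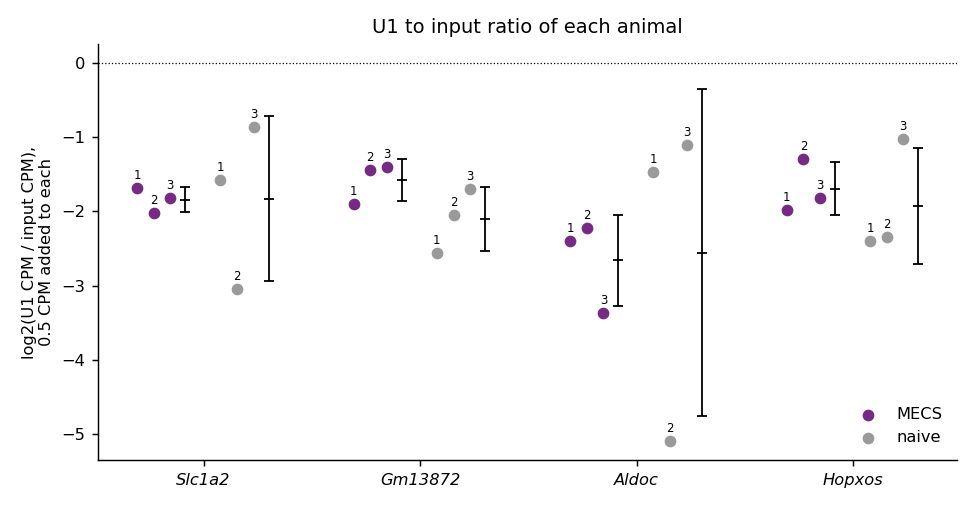
Log2 ratio of U1 to input CPM in each animal (0.5 CPM added to both), MECS left of naive for each feature; points are animals numbered by replicate and bars are the mean and SD of 3. All 24 ratios lie below 0, and naive animal 2 has the lowest ratio of Slc1a2 (0.122 as a linear ratio) and Aldoc (0.0293).

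In the model of all 12 libraries, the effect of MECS on the log2 ratio was 0.52 (SE 0.23) for Gm13872, with an unadjusted p of 0.0328 and an adjusted p of 0.997 (edgeR). It was positive in 19 of 19 alternatives, between 0.35 and 0.73. These alternatives reuse the same 12 libraries, so nothing is read from the sign that it kept. The effect was 0.04 (SE 0.34) for Slc1a2, -0.33 (SE 0.86) for Aldoc and 0.16 (SE 0.39) for Hopxos, each within its own standard error. Of 12184 features 0 passed the adjusted threshold, or 0% (also 0 with DESeq2 and limma-voom), and 383 (3.14%) had an unadjusted p under 0.05. The other 3 values changed sign with single libraries. Slc1a2 turned to -0.36 without naive input 2, -0.24 without naive U1 2 and -0.033 without MECS U1 1, Aldoc to 0.41 without naive U1 3 and Hopxos to -0.0078 without MECS U1 2.

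**Figure D4:**
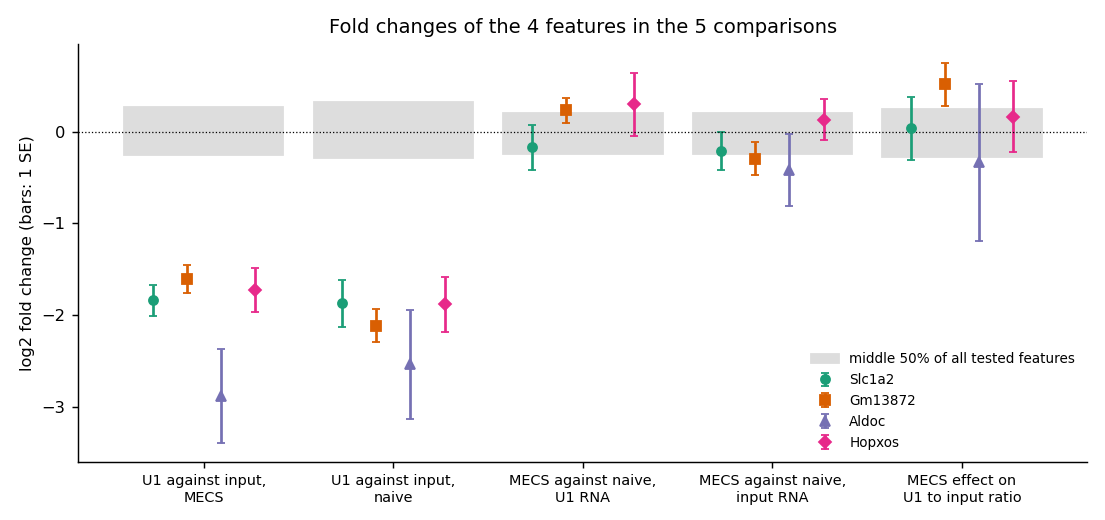
Log2 fold changes of the 4 features in the 5 comparisons (points, bars 1 SE), over the middle 50% of all tested features (grey). The 4 lie between -2.88 and -1.60 in U1 against input RNA and between -0.42 and 0.52 in the MECS comparisons; Aldoc was not tested in U1 RNA.

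Part of the astrocyte list was lower in U1 RNA as well. The astrocyte list of 46 genes, read by own symbol and without Slc1a2 and Aldoc, had 23 tested genes in MECS brain, of which 0 were higher, 5 were lower and 19 had a fold change below 0. Over all features 3.3% were higher and 5.21% lower in that state. In naive brain 22 were tested, of which 0 were higher, 5 were lower and 19 were below 0, against 4.19% higher and 6.26% lower over all features. The median log2 fold change of those tested was -0.59 in MECS brain and -0.63 in naive brain, against 0.02 and 0.03 over all features in those states. The same 5 were lower in both states. Of the tested genes, 15 in MECS brain and 13 in naive brain had at least 10 counts in every U1 library, and 4 of those 15 and 3 of those 13 were lower. The remaining tested genes had fewer counts in at least 1 U1 library. Any that passed the filter on low counts only through the inputs had to be lower in U1 RNA. Such genes are part of the counts below 0 and of the medians. Neither was worked out without them, so nothing is read from the shift of the list as a whole.

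Apoe, Clu, Glul and Sparcl1 were among the 5. Apoe, the brain's main lipid carrier, averaged 13.8 ± 4.43 CPM in MECS U1 RNA and 44.2 ± 6.87 CPM in MECS input RNA (SD, n = 3 each), a log2 fold change of -1.69 (SE 0.28, adjusted p = 0.000271 with edgeR). In naive brain its log2 fold change was -1.78 (SE 0.38, adjusted p = 0.00126 with edgeR). Glul, glutamine synthetase, which converts the glutamate that Slc1a2 takes up, changed by -1.84 (SE 0.30) in MECS brain and -1.40 (SE 0.40) in naive brain. Clu, the chaperone clusterin, changed by -2.0 (SE 0.48) in MECS brain and -1.94 (SE 0.52) in naive brain, on 3 to 6 counts in MECS U1 libraries and 2 to 8 in naive U1 libraries. Like Aldoc, Clu passed the filter on low counts only through the input libraries, which by itself requires a lower U1 level. Sparcl1, a secreted synaptogenic protein, changed by -1.41 (SE 0.22) in MECS brain and -1.07 (SE 0.31) in naive brain. Its naive value was -0.58 without naive input 2, and it did not pass there, without naive U1 1 or with limma-voom. Most naive calls changed with single libraries. Without naive input 2 the naive count of lower astrocyte genes fell to 1, Apoe (-1.46, SE 0.40, adjusted p = 0.0141 with edgeR), and without naive U1 1 it fell to 2. Without naive U1 2 Glul did not pass, and Apoe stood at -1.17. With DESeq2 Apoe did not pass in naive brain (adjusted p = 0.187). In MECS brain Clu did not pass without MECS input 1 or MECS U1 1 (adjusted p = 0.0866 and 0.0640 with edgeR). Gfap, the astrocyte intermediate filament gene, stood at 0.35 (SE 0.29) in MECS brain and 0.39 (SE 0.33) in naive brain, and Aqp4 at -0.30 (SE 0.34) and -0.25 (SE 0.41). Neither passed the test.

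**Figure D5:**
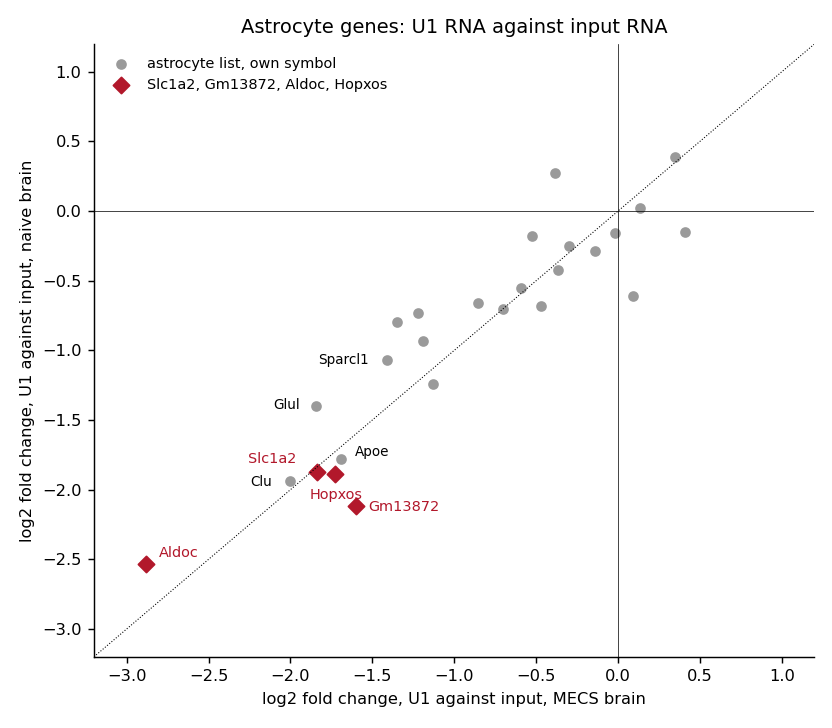
Log2 fold change of U1 against input RNA in MECS brain (x axis) and naive brain (y axis) for Slc1a2, Gm13872, Aldoc and Hopxos (red diamonds) and the 22 other astrocyte genes tested in both states (grey; Apoe, Clu, Glul and Sparcl1 are named), with the line of equality dotted. Aldoc is the lowest point in both states, Clu, Apoe and Glul lie nearest to the others, and Gfap lies above 0 on both axes.

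Features annotated opposite astrocyte genes, as Gm13872 is, were few. Gm15756, opposite the astrocyte marker gene Aldh1l1, averaged 50.2 ± 8.16 CPM in MECS U1 RNA and 101.7 ± 14.4 CPM in MECS input RNA, and 28.1 ± 1.94 CPM in naive U1 RNA and 90.4 ± 11.7 CPM in naive input RNA (SD, n = 3 each). It was lower in U1 RNA in both states, by a log2 fold change of -1.01 (SE 0.19, adjusted p = 0.00101 with edgeR) in MECS brain and -1.69 (SE 0.23, adjusted p = 2.36e-06) in naive brain. Like Gm13872 and 8.77% of all features tested, it was higher in every MECS U1 library than in every naive U1 library. Its log2 fold change there was 0.83 (SE 0.24, adjusted p = 0.140 with edgeR). G630022F23Rik, opposite the receptor gene Fgfr3, was lower in naive brain (-0.71, SE 0.18, adjusted p = 0.00519 with edgeR), and its value in MECS brain was -0.35 (SE 0.21, adjusted p = 0.386). Gm8132, opposite the GABA transporter gene Slc6a11, had -0.51 (SE 0.43) in MECS brain and -0.45 (SE 0.46) in naive brain. Without naive input 1 the naive value of G630022F23Rik was -0.54 and did not pass. The MECS and naive U1 libraries overlapped for G630022F23Rik, Gm8132 and Hopxos.

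Among 20 genes of glutamate uptake and recycling, 9 were tested in each state beside Slc1a2. In MECS brain 2 were lower in U1 RNA and 0 were higher, and in naive brain 2 were lower and 1 was higher. Over all features 5.21% were lower and 3.3% higher in MECS brain, and 6.26% lower and 4.19% higher in naive brain. Without naive input 3 the naive count of higher genes was 0, and with the replicate block that in MECS brain was 1. The lower ones in both were Glul and Slc17a7, the vesicular glutamate transporter of neurons, at -1.64 (SE 0.28) in MECS brain and -1.47 (SE 0.30) in naive brain. The other astrocyte glutamate transporter gene, Slc1a3, stood at -1.35 (SE 0.51, adjusted p = 0.115) in MECS brain and -0.80 (SE 0.49, adjusted p = 0.384) in naive brain. Its counts were 3 to 12 in MECS U1 and 13 to 16 in MECS input libraries. In naive brain they were 3 to 14 and 11 to 16. In MECS brain Slc1a3 passed the filter on low counts only through the inputs, which by itself requires a lower U1 level. Gm45760, opposite Got2, the mitochondrial aspartate aminotransferase gene, was lower in U1 RNA, with log2 fold changes of -1.18 (SE 0.19) in MECS brain and -1.11 (SE 0.18) in naive brain. In naive brain Glul did not pass without naive input 2, naive U1 1 or naive U1 2, with the replicate block (adjusted p = 0.0603 with edgeR) or with DESeq2 (adjusted p = 0.288).

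Among 26 genes of glycolysis and lactate handling, 0 of 15 tested beside Aldoc passed in MECS brain and 0 of 13 in naive brain with edgeR, DESeq2 or limma-voom. Over all features 5.21% were lower and 3.3% higher in MECS brain, and 6.26% lower and 4.19% higher in naive brain, so that counts of 0 among so few genes lie near the background. In each state 3 had an unadjusted p under 0.05 with edgeR. The share of all features at that unadjusted p is not given here, so nothing is read from this count. The median log2 fold change was -0.22 in MECS brain and 0.16 in naive brain. Aldoa, the gene of the aldolase isozyme of muscle, had -0.62 (SE 0.29) in MECS brain and -0.93 (SE 0.38) in naive brain. The symbol Aldoa has 2 identifiers in these data, and these values are those of the 1 annotated opposite Fam57b. In MECS brain Gapdh stood at 0.37 (SE 0.17) and Pfkl at 0.47 (SE 0.22), both higher in U1 RNA. In naive brain Slc2a1 stood at 0.76 (SE 0.37), the lactate transporter gene Slc16a3 at 0.41 (SE 0.19) and Pkm, the pyruvate kinase gene, at -1.01 (SE 0.59). Pkm had 2 to 21 counts in naive U1 libraries and 12 to 25 in naive inputs, and passed the filter only through the inputs. Gm12867, opposite Slc2a1, the glucose transporter gene of the blood-brain barrier, was higher in U1 RNA by 1.53 (SE 0.23) in MECS brain and 1.78 (SE 0.20) in naive brain (adjusted p = 0.000103 and 7.38e-08 with edgeR). Gm12868, also opposite Slc2a1, was higher by 0.79 (SE 0.21) in MECS brain and 0.57 (SE 0.18) in naive brain (adjusted p = 0.0160 and 0.0344 with edgeR). It did not pass in 3 of 14 alternatives in MECS brain and in 6 of 14 in naive brain.

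With convulsion the astrocyte list gave counts near the background. In input RNA 0 of 26 tested, Slc1a2 and Aldoc among them, passed with edgeR, DESeq2 or limma-voom, against 0.606% of all features with edgeR. An unadjusted p under 0.05 with edgeR was reached by 2 of them, against 9.66% of all features: Hepacam, a glial adhesion gene (-1.19, SE 0.43, adjusted p = 0.269), and Apoe (-0.55, SE 0.25, adjusted p = 0.466). Hepacam had 5 to 13 counts in MECS inputs and 15 to 20 in naive inputs. It passed the filter on low counts only through the naive inputs, which by itself favours a lower MECS level. In U1 RNA 0 of 19 passed with edgeR, DESeq2 or limma-voom, against 0.386% of all features with edgeR, and 0 had an unadjusted p under 0.05 with edgeR, against 10.5%. The list's median log2 fold change was -0.21 in U1 RNA and -0.17 in input RNA, against -0.02 over all features in each.

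Summed levels of other cell types' markers were lower in U1 RNA for some types, and higher or overlapping for others. Summed CPM of 20 neuronal genes were 992 to 1529 in MECS U1 RNA and 1829 to 2761 in MECS input RNA, and 971 to 1364 in naive U1 RNA against 2060 to 2989 in naive input RNA. Much of that gap lay in Nefm, a neurofilament gene, which averaged 652 CPM in MECS U1 RNA and 1538 CPM in MECS input RNA, and 546 CPM in naive U1 RNA and 1793 CPM in naive input RNA. Nrgn, neurogranin, was higher in U1 RNA, at 237 CPM in MECS U1 RNA and 78.1 CPM in MECS input RNA, and 207 CPM in naive U1 RNA and 69.8 CPM in naive input RNA (adjusted p = 9.85e-07 in MECS brain and 3.14e-06 in naive brain with edgeR). Sums of the astrocyte genes without Slc1a2 and Aldoc were 593 to 626 in MECS U1 RNA, 858 to 926 in MECS input RNA, 612 to 742 in naive U1 RNA and 818 to 1312 in naive input RNA. For 17 oligodendrocyte genes they were 422 to 452 in MECS U1 RNA, 637 to 805 in MECS input RNA, 383 to 391 in naive U1 RNA and 586 to 883 in naive input RNA. The 14 endothelial genes summed to 323 to 344 in MECS U1 RNA and 257 to 274 in MECS input RNA, and to 378 to 465 in naive U1 RNA and 297 to 324 in naive input RNA, with every U1 sum above every input sum of its state. The 15 pericyte and smooth muscle genes overlapped in MECS brain, at 525 to 563 in U1 RNA and 519 to 561 in input RNA, and summed to 625 to 705 in naive U1 RNA and 488 to 612 in naive input RNA. The 14 microglia genes summed to 332 to 353 in MECS U1 RNA and 353 to 405 in MECS input RNA, and to 336 to 355 in naive U1 RNA and 384 to 431 in naive input RNA. Of 15 neuronal genes tested in each state 4 were lower and 1 was higher in U1 RNA, and of 8 oligodendrocyte genes 3 were lower and 0 higher. Of 6 endothelial genes 0 were lower and 1 was higher in each state. Among pericyte and smooth muscle genes 0 were lower, and 1 of 8 in MECS brain and 3 of 9 in naive brain were higher. Myh11, higher in both states, and Rgs5, higher in naive brain, passed the filter on low counts only through the U1 libraries. That by itself requires a higher U1 level. Over all features 5.21% were lower and 3.3% higher in MECS brain, and 6.26% and 4.19% in naive brain. Of the microglia genes 0 of 5 tested passed in each state with edgeR, and 0 had an unadjusted p under 0.05. For the unadjusted p the share of all features is not given here, and nothing is read from that count. The part of these cell types in the values of the 4 features was not tested.

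Across the 12 libraries log2 CPM of the 4 features ran together, with Pearson r between 0.858 (Aldoc and Gm13872) and 0.969 (Aldoc and Slc1a2). These are descriptions over 12 libraries that share the step between U1 and input RNA, which the features were chosen for. Among 5796 named features, those most like Gm13872 were Nme7, Stk16, Crtac1, Tcte1 and Fam151a (r of 0.983 to 0.988). Nme7, a nucleoside diphosphate kinase family gene, averaged 326 CPM in MECS U1 RNA and 1202 CPM in MECS input RNA, and 246 CPM in naive U1 RNA and 1405 CPM in naive input RNA. App, Shank1, Mbp and Bsn were among the 5 most like Aldoc (r of 0.973 to 0.983 over the 5), of which Mbp is the myelin basic protein gene and Shank1 and Bsn are neuronal genes.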

How the data were processed

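Per the labels' protocols, 100 bp single-end reads came from a stranded total RNA kit. The authors deposited counts per Ensembl gene for 12 libraries. The submitters' processing notes name Trimmomatic 0.39, FastQC, HISAT2 2.2.0, StringTie 2.1.3, Salmon 1.4, DESeq2 and mm10. The program that made the counts, with its annotation and strand option, is not given in the sources used. Of 55471 identifiers 55144 matched GENCODE M21 (GRCm38); rows that name no gene (98.2% to 98.6% of listed reads) did not enter library sizes.

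edgeR 4.0.16 fitted quasi-likelihood models per comparison, with TMM scaling, filterByExpr (minimum count 10) and Benjamini-Hochberg adjustment over all features tested at a threshold of 0.05. The SE was taken as log2 fold change over the root of the F statistic. The scripts were tested on simulated data. Ratios per animal used CPM with a pseudocount of 0.5. U1 and input libraries were paired by title prefix. Deviations from group means correlated at -0.10 to 0.02 within naive pairs and at 0.11 to 0.22 within MECS pairs over 12184 features. MECS and naive libraries share only a number.

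The 4 features and the gene lists were chosen with earlier results of these data known. Named genes were the 4 features, Hopx, genes that passed in a list or had its 4 smallest p, and the 5 features most correlated with Gm13872 and with Aldoc. Alternatives were RLE size factors, library size alone, no filter, DESeq2 1.42.0, limma-voom 3.58.1, leaving out small, mitochondrial and ribosomal RNA features, a replicate block, 1 fit of all libraries, other pseudocounts and leaving out each library. Some genes that this rule names are counted in the totals but not reported here by name.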

Additional observations from a re-analysis of the deposited data

How the results depend on the processing

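All 4 features stayed lower in U1 than in input RNA in both states under each of the 14 alternatives tried per state, and moved by less than 1 SD of the ratios per animal. They were chosen for a low ratio in these same libraries, so nothing is read from the sign that they kept. That SD was wide in naive animals, at 1.11 for Slc1a2 and 2.21 for Aldoc. The naive value of Aldoc ranged from -3.28 to -1.77. In MECS against naive and in the effect on the ratio, 0 of the 4 passed under any alternative. Leaving out 1 library at a time gave ranges that cross 0: in input RNA -0.42 to 0.21 for Slc1a2, -0.64 to 0.044 for Aldoc and -0.032 to 0.28 for Hopxos; in U1 RNA -0.42 to 0.14 for Slc1a2. For the effect on the ratio they were -0.36 to 0.34 for Slc1a2, -1.09 to 0.41 for Aldoc and -0.0078 to 0.45 for Hopxos. For the ratio per animal they were -0.62 to 0.47 for Slc1a2, -1.37 to 0.62 for Aldoc and -0.014 to 0.68 for Hopxos. The Slc1a2 effect on the ratio also turned to -0.039 with library size alone and -0.0065 with limma-voom, the Aldoc effect to 0.22 with limma-voom, and the Slc1a2 difference per animal to 0.0031 with RLE size factors; the cause was not tested. Astrocyte genes lower in naive U1 RNA numbered 3 with DESeq2 and 1 (without naive input 2) to 6 when 1 library was left out, against 5.

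With the replicate block, the effect of MECS on the ratio of Gm13872 was 0.52 (SE 0.21, adjusted p = 0.995 with edgeR), and the block changed no call among the 4 features. It moved the count of all features called in MECS against naive input RNA to 142, against 63 without it, and in U1 against input RNA of MECS brain to 1488, against 918. Aldoc could be fitted in U1 RNA only with no filter or with all libraries in 1 fit (-0.75, SE 0.76). Depth limits Aldoc, at 1 to 7 counts in U1 libraries, and each group has 3 libraries.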
